A study of Mus musculus with 12 samples.

Results

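Scand1 and Cnbd2 are a pair of genes that lie on opposite strands of mouse chromosome 2 and overlap at their 5′ ends. They were taken as 2 of the 47729 genes in the amygdala RNA sequencing data, by matching the Ensembl identifiers of the deposited counts to GENCODE M21 (ENSMUSG00000046229 for Scand1 and ENSMUSG00000038085 for Cnbd2). Scand1 was chosen by its measured difference in level across the predicted anxiety states in these same samples, and Cnbd2 by its overlap with it. Its values by state are therefore a description without a test. The study asked whether genetically alike mice that differ in anxiety-like behavior also differ in amygdala gene expression. Bilateral amygdala tissue of 12 adult female C57/BL6 mice, an inbred strain, was sequenced, with 1 library per mouse. All mice went through the same behavior tests, and no allele or agent set the groups apart. The labels name 3 less anxious mice (mice 3, 7 and 12), 4 anxious mice (1, 4, 8 and 11) and 4 more anxious mice (2, 6, 9 and 10), and give mouse 5 no state.

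The states were not read from behavior directly. The study formed them as tertiles of the second principal component of the same expression data, a component picked for its relation to the behavior scores. A test between states is therefore not independent of the values it tests, for Scand1 and for the other genes alike. The tissue is bulk amygdala, so fewer cells of a type and less RNA per cell cannot be told apart. The total of estimated counts ran from 31745630 to 45142355 per library, and the library of mouse 5 had a read on 23768 genes, against 26378 to 28196 in the others. The 8 neuronal markers checked summed to between 4560 and 5752 CPM (reads of a gene per 1e6 reads of its library, after scaling) in the 11 mice with a state. Within that sum, Slc17a7 ran from 678 CPM in mouse 12 to 1398 in mouse 9, and Gad2 from 153 in mouse 9 to 303 in mouse 1. Of the 8 markers, 4 had a positive log2 fold change from less to more anxious mice. edgeR called 0 of them, with 1 at an unadjusted p under 0.05, which 6.35% of all genes tested reached. The sums for nearby tissue varied more than the neuronal sum. The 5 striatal markers summed to 123 to 418 CPM in the less anxious mice, 90.7 to 171 in the anxious mice and 84.9 to 233 in the more anxious mice, and the 6 pituitary markers to at most 4.72, 57.7 and 2.95 CPM in the same order. edgeR called 0 of either list across the states. At an unadjusted p under 0.05 stood 2 of the 5 striatal and 5 of the 6 pituitary markers, against 6.35% of all genes tested. The part of these tissues in the values reported here was not tested. The library pairs all differed beyond sampling noise, with a mean chi-square per gene of at least 19.3 over the 66 pairs.

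SCAN domains are short helical regions, found mostly at the amino end of zinc finger transcription factors, through which these proteins pair with each other. Scand1 encodes a small protein that carries a SCAN domain without the zinc fingers, so it can pair with the DNA-binding family members but has no such DNA-binding region of its own. Its known partner Zfp202 is a zinc finger repressor of lipid metabolism genes, and the RefSeq synonyms of mouse Scand1, PGC-2 and Ppargc2, come from its description as a coactivator of the nuclear receptor Pparg. Cnbd2 encodes a protein with a cyclic nucleotide binding domain, which is known mainly from spermatids and male fertility.

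In GENCODE M21 on build GRCm38, Scand1 spans chr2:156311847-156312704 on the minus strand, with 1 transcript, 2 exons and 759 exon bases, of which 426 are coding. Cnbd2 spans chr2:156312299-156375638 on the plus strand, with 6 transcripts and 3879 exon bases over all isoforms. The genes share 406 bases. A total of 307 exon bases of Scand1, 40.4% of its exons, lie opposite a Cnbd2 exon, which is 7.91% of the Cnbd2 exon bases. The overlap takes in 50 coding bases of Scand1 and 172 coding bases of Cnbd2. Most of it belongs to a single Cnbd2 isoform: Cnbd2-201 lies opposite Scand1 exons over 307 bases, Cnbd2-202, Cnbd2-203, Cnbd2-204 and Cnbd2-205 over 72 to 127 bases, and Cnbd2-206 over 0. RefSeq starts Cnbd2 further upstream, at position 156311946 of the same build, so the extent of the overlap depends on the gene model.

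The start region of Scand1 is printed to show how the genes interleave. The promoter window, from RefSeq on GRCm38.p6, is chr2:156312655-156312954 on the minus strand and covers 250 bases before and 50 bases after the start. Its capitals mark the 145 bases that lie opposite the first exon of Cnbd2-201. The coding start, chr2:156312289-156312348 on the minus strand, was taken from the GENCODE M21 transcript, and its capitals mark the 50 coding bases opposite the same exon.
Scand1 promoter: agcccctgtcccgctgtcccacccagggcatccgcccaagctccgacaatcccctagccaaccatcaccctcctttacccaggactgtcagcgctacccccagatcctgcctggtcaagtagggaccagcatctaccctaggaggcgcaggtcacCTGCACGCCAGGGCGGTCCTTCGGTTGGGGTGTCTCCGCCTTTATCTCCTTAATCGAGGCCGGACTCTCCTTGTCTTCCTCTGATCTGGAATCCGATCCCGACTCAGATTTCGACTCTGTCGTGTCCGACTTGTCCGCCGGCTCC
Scand1 coding start: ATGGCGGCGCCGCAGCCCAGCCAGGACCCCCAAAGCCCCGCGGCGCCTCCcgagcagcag

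The promoter window had a GC content of 61.3% and 18 CpG dinucleotides, against a median of 52.7% and 7 over 27025 promoters of the same length. In 28.4% of these promoters the CpG count was higher. On both strands together the window held 2 matches to the GC box GGGCGG, 1 on each, and 35.9% of promoters held at least 1. A CCAAT box, which 37.9% of promoters held, had 0 matches on either strand. The TATA box, searched as TATAAA and held by 14.2%, also had 0. The same was found for the cyclic AMP response core TGACG (21% of promoters) and for the E box, searched as CACGTG (7.24%). The coding start was richer still in G and C, at 78.3% with 7 CpG in 60 bases, and Scand1 exons as a whole had a GC content of 68.4%, higher than in 99.6% of annotated genes (median 47.2%). The GC content of a gene was taken here and below from the exons of its longest transcript, and for Cnbd2 it was 51.9%. The level of GC-rich genes in each library is therefore given beside the Scand1 values further on.

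**Figure D1:**
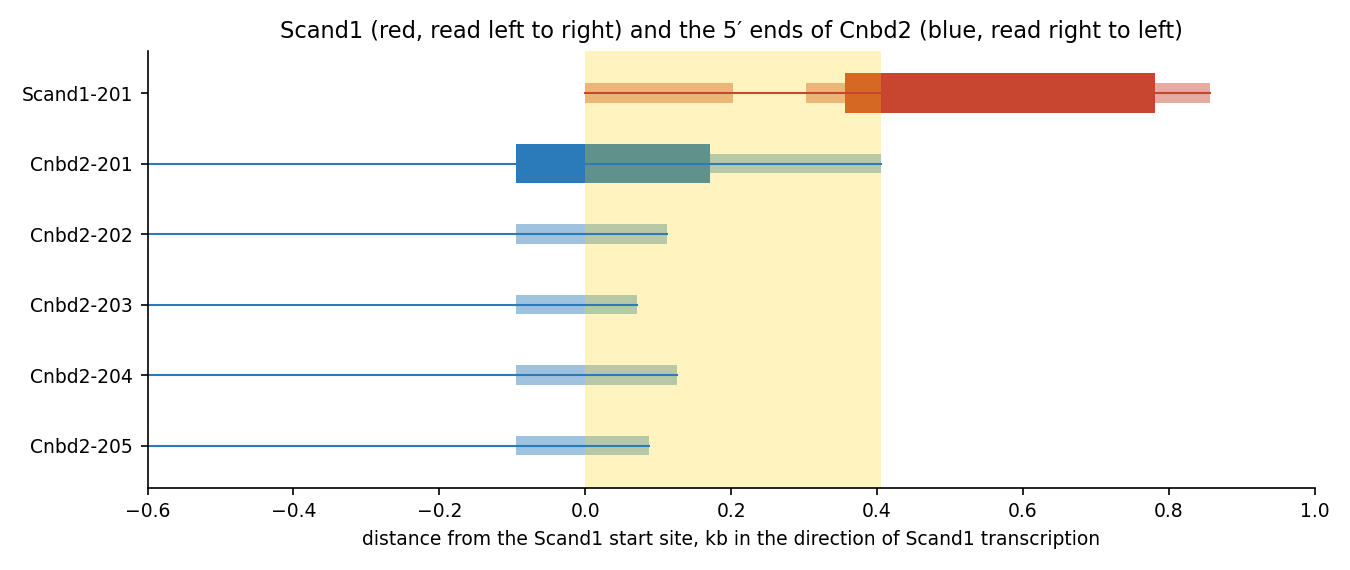
Transcripts of Scand1 (red) and the 5′ parts of the 5 Cnbd2 transcripts that reach it (blue), against the distance from the Scand1 start in kb, with coding parts as tall boxes, other exon parts as low boxes, introns as lines and the shared span shaded. The long Cnbd2-201 exon runs over the whole of the shared 406 bases, while the other isoforms reach only the start of Scand1.

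Scand1 mRNA was low in the less anxious mice and higher, mouse by mouse, in the more anxious mice. In the less anxious mice it was 3.37 CPM in mouse 3, 3.67 in mouse 7 and 3.52 in mouse 12. In the anxious mice it was 4.86 CPM in mouse 1, 7.42 in mouse 4, 7.66 in mouse 8 and 6.86 in mouse 11. In the more anxious mice it was 16.1 CPM in mouse 2, 11.8 in mouse 6, 25.9 in mouse 9 and 10.8 in mouse 10. No value of a state overlapped with that of another, and the spread widened with the level, with mouse 9 standing above its group and mouse 1 closest to the less anxious mice.

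The means were 3.52 ± 0.151 CPM (SD, n = 3), 6.70 ± 1.27 (SD, n = 4) and 16.1 ± 6.88 (SD, n = 4). From less to more anxious the ratio of means was 4.58, and the fitted log2 fold change was 2.20 (SE 0.30). The step from less anxious to anxious was 0.95 (SE 0.30) and that from anxious to more anxious was 1.26 (SE 0.26) on the log2 scale. Without mouse 9 the overall log2 fold change was 1.78. Behind these values stood 121 to 146 estimated counts per less anxious mouse and 388 to 1140 per more anxious mouse, so the lowest values carry a counting interval, for example 2.79 to 4.02 CPM in mouse 3 (exact Poisson, 95%, counting error only), that is wide compared with the spread within that group.

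The log2 fold change of Scand1 ranked 367 of the 26963 genes tested, and 17 of the 15892 with a mean of at least 1 CPM. Of the 26963 genes tested, 21 (0.0779%) had values without overlap that were higher at each step across the 3 states, 1210 (4.49%) had more anxious values all above the less anxious ones, 1058 (3.92%) had them all below, and 1529 (5.67%) had a log2 fold change above 1. These shares are given for scale only, since the state contrast is what chose Scand1. Mouse 5, which has no state, had the lowest Scand1 level of all, at 2.73 CPM from 90 estimated counts. In this library 18.1% of genes were below the values of all the other mice, and 19.9% of those with a mean of at least 1 CPM.

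Cnbd2, on the other strand of the same locus, had overlapping values in the 3 states. In the less anxious mice it was 4.92 CPM in mouse 3, 5.05 in mouse 7 and 5.27 in mouse 12. In the anxious mice it was 5.78 CPM in mouse 1, 4.81 in mouse 4, 7.22 in mouse 8 and 3.47 in mouse 11. In the more anxious mice it was 5.74 CPM in mouse 2, 5.58 in mouse 6, 6.28 in mouse 9 and 4.90 in mouse 10. The states overlapped, and the anxious group alone held both the highest and the lowest of the 11 values. Its mean was 5.08 ± 0.175 CPM (SD, n = 3) in less anxious, 5.32 ± 1.58 (SD, n = 4) in anxious and 5.63 ± 0.571 (SD, n = 4) in more anxious mice. From less to more anxious the log2 fold change was 0.11 (SE 0.21). Mouse 5 had 3.71 CPM.

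**Figure D2:**
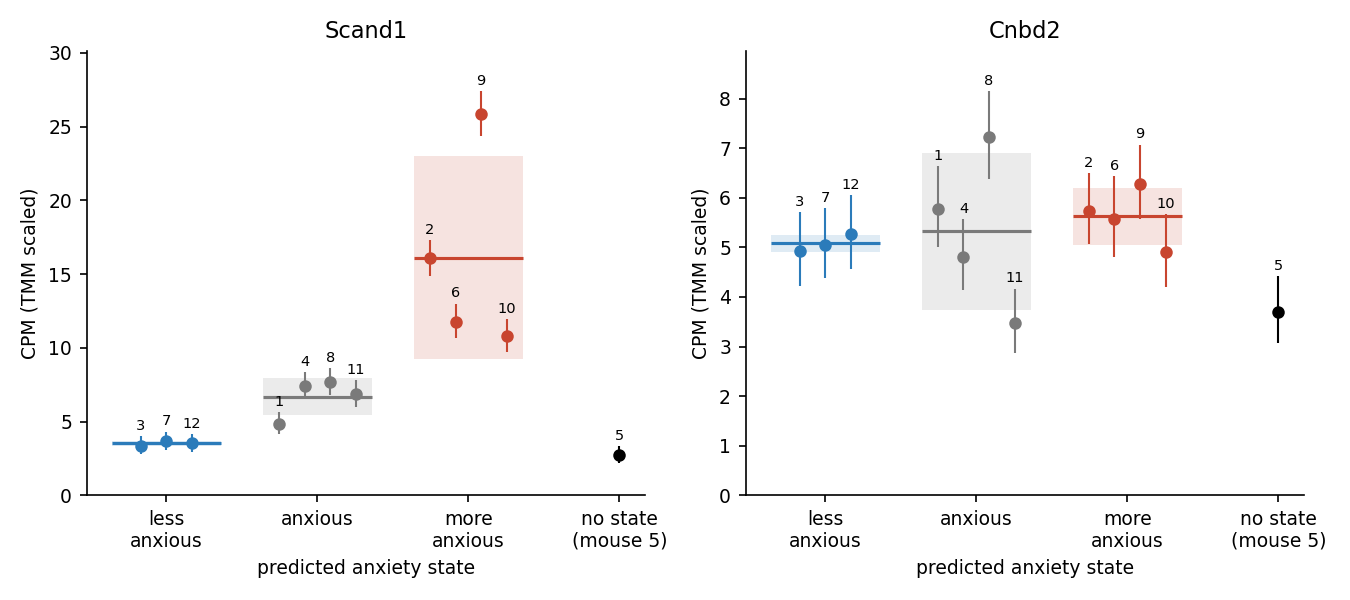
CPM of Scand1 (left) and Cnbd2 (right) in each mouse by predicted anxiety state, numbered by mouse, with exact Poisson 95% intervals as bars, group means as lines and ± SD as shaded bands. Scand1 runs from 3.37 CPM in mouse 3 to 25.9 in mouse 9 with no overlap between states, whereas the Cnbd2 bands of the states overlap.

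Per kb of annotated exon, Scand1 was the more abundant transcript in every state, at 4.63, 8.82 and 21.2 CPM per kb, against 1.31, 1.37 and 1.45 for Cnbd2. The Cnbd2 figures divide by the exons of all isoforms, which lowers them. The ratio of Scand1 to Cnbd2 in CPM was 0.668 to 0.726 in the less anxious mice, 0.841 to 1.97 in the anxious mice and 2.11 to 4.12 in the more anxious mice. The ratio separated the states as Scand1 itself did, while mouse 5, at 0.738, lay next to the less anxious mice. Scand1 was chosen for its contrast and Cnbd2 differed little between states, so this separation was given beforehand and tests nothing. Over the 11 mice, log2 CPM of the genes had a Pearson r of 0.305 (permutation p = 0.368, two-sided) and a Spearman rho of 0.382 (p = 0.247), and r was 0.119 without mice 3 and 9. With mouse 5 included, r was 0.450 (permutation p = 0.140). The kit keeps strand, but whether the counting used it is not given in the sources used here. Reads from the 307 bases that exons of both genes cover could then not be told apart, and how many there were was not tested.

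The level of GC-rich genes moved with Scand1. In each library, the 58 genes with over 65% GC and a mean of at least 1 CPM, Scand1 among them, were set against their own mean over the 12 mice, and the median deviation was taken on the log2 scale. It was -0.39 to -0.12 in the less anxious mice, -0.22 to 0.20 in the anxious mice and 0.19 to 0.56 in the more anxious mice, and -0.44 in mouse 5. Across the 11 mice Scand1 had an r of 0.946 and a rho of 0.973 with this deviation, and Cnbd2 an r of 0.356 and a rho of 0.409. These points share library and base composition and carry no test. Between more and less anxious mice the median log2 fold change was -0.08 for the 1147 genes under 40% GC, 0.21 for the 616 genes from 60 to 65%, and 0.63 for the 59 genes at 65% and over, of which 94.9% had a positive change and 12 a log2 fold change above 1.

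The difference in Scand1 was smaller, with the same order of states, after a GC term was fitted per library. With that offset its level was 4.08 to 4.66 CPM in the less anxious mice, 5.80 to 7.42 in the anxious mice and 9.88 to 18.2 in the more anxious mice. The states still did not overlap, and the log2 fold change from less to more anxious was 1.60. With the offset, the median for genes at 65% GC and over was 0.14. The GC term was fitted on genes that include these, so their median was drawn toward 0 by the fit. Scand1 was chosen for its contrast, so its distance from that median is a description and tests nothing. With a term for exon length as well, an alternative chosen after seeing the data, the log2 fold change was 1.41. Cnbd2 had a log2 fold change between 0.08 and 0.15 under every alternative that kept all mice.

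**Figure D3:**
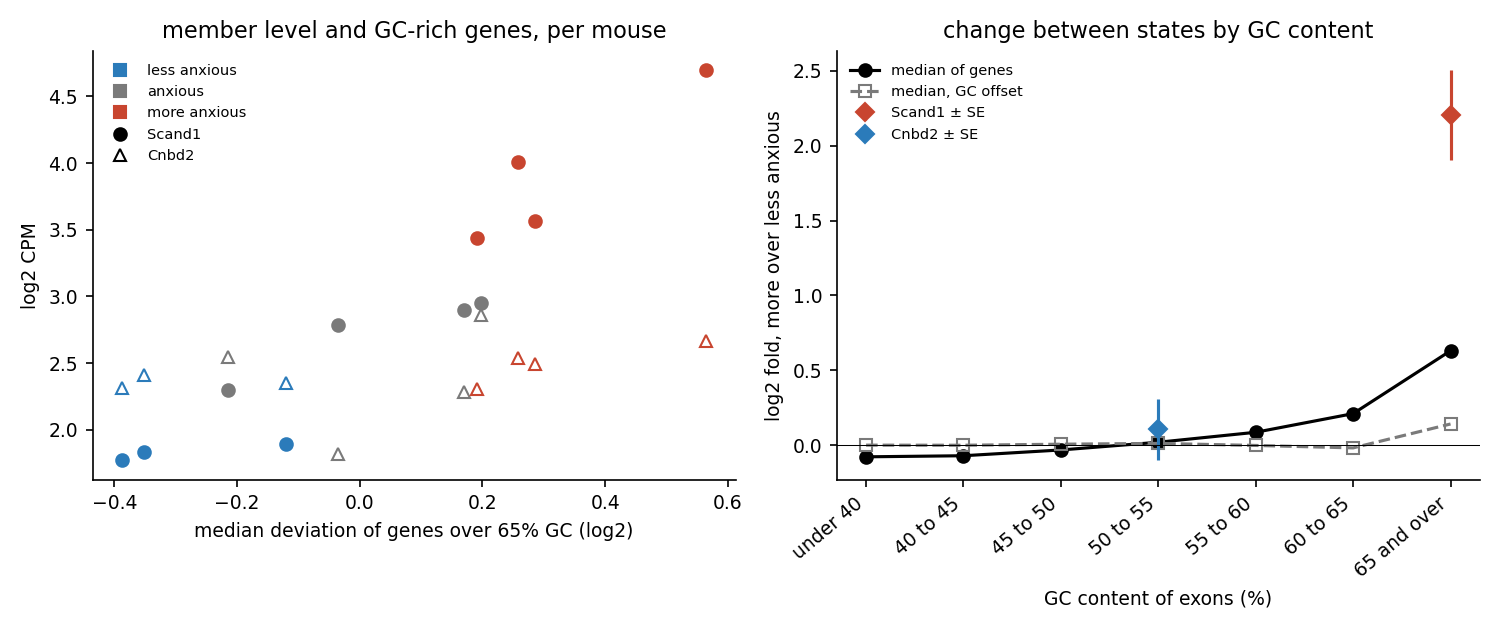
Left, log2 CPM of Scand1 (filled) and Cnbd2 (open) in the 11 mice against the median log2 deviation of the genes over 65% GC in the same library; right, median log2 fold change of more over less anxious mice by exon GC content, with and without the GC offset, and the values of Scand1 and Cnbd2 with SE. Scand1 climbs with the GC-rich genes at left and at right lies at 2.20, above the median of 0.63 for its GC class.

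The behavior scores were not used to choose Scand1 directly, although the component behind the states was picked for its relation to them. In the light/dark box, mice that stay in the dark are taken as more anxious. Among the more anxious mice, mouse 2 spent 14.5% of the time in the light, mouse 6 46.6%, mouse 9 12.4% and mouse 10 20.9%. The less anxious mice spent 25.1% to 33.5% there, and the anxious mice 18.1% to 32.6%. Mouse 6 thus carries the more anxious label but had the highest time in the light of all 12 mice.

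Scand1 had a negative slope against the time spent in the light, but the relation did not pass any corrected test. Time in the light gave an r of -0.40 over 11 mice (permutation p = 0.222, two-sided) and a rho of -0.63 (p = 0.0439, 0.363 after adjustment over the 14 relations computed). Without mice 3 and 6, the farthest from the median time, r was -0.85. The slope was -0.32 log2 units per SD (SE 0.23), with an edgeR adjusted p of 0.9997, and leaving out mouse 6 alone made it -0.85 with an adjusted p of 0.0539. Without mouse 9 it was -0.11, with an edgeR adjusted p of 0.9996. The size of the slope thus depended on both of these mice, and it did not pass the threshold without either. At this test 2 genes of the 26963 (0.00742%) were called.

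Distance in the light gave an r of -0.59 (permutation p = 0.0591) and a rho of -0.61 (p = 0.0518), with a slope of -0.49 (SE 0.22, edgeR adjusted p = 0.848). Without mouse 6 the slope was -0.87 (edgeR adjusted p = 0.0896), and without mouse 9 it was -0.28 (edgeR adjusted p = 0.893). Here edgeR called 0 genes (0%), with 1565 (5.8%) at an unadjusted p under 0.05, and DESeq2 called 22 (0.101%). For open arm time in the elevated plus maze, a test of avoidance of exposed places, r was -0.54 (permutation p = 0.0909), rho was -0.52 (p = 0.108) and the slope was -0.48 (SE 0.23, edgeR adjusted p = 0.859). That slope was -0.82 without mouse 6 (edgeR adjusted p = 0.378) and -0.28 without mouse 9 (edgeR adjusted p = 0.917). The sign was thus negative for all 3 of these measures, with slopes that were larger without mouse 6 and smaller without mouse 9. They were also smaller with mouse 5 included, at -0.25 for time in the light, -0.38 for distance in the light and -0.41 for open arm time. Mouse 5 had the lowest Scand1 level and spent the least time in the light (12.05%). For open arm time edgeR called 0 genes (0%), with 1575 (5.84%) at an unadjusted p under 0.05, and DESeq2 called 43 (0.225%).

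Total entries into the arms of the maze, which also reflect how much a mouse moves, gave an r of -0.42 (permutation p = 0.201) and a slope of -0.42 (SE 0.29, edgeR adjusted p = 0.831), which was -0.28 without mouse 12. There edgeR called 0 genes (0%), with 1879 (6.97%) at an unadjusted p under 0.05, and DESeq2 called 38 (0.186%). The box:zone ratio of the social test compares time close to a stranger mouse with time in the zone around it. For Scand1 it gave an r of 0.39 at 3 min in 10 mice (permutation p = 0.259). The slope at that time was 0.50 (SE 0.30, edgeR adjusted p = 0.762), but 0.03 without mouse 9 and 0.33 without mouse 7. The r was -0.14 after 5 min (permutation p = 0.681) and -0.25 after 10 min (permutation p = 0.460). At these times edgeR called 0.015%, 0.0111% and 0.0223% of genes. Without mice 2 and 3, the farthest from the median, the later r values became 0.50 and 0.35. Leaving out mouse 3 alone turned the slopes from -0.07 to 0.18 at 5 min and from -0.29 to 0.07 at 10 min. Over the 14 relations the smallest adjusted permutation p was 0.636 for r and 0.363 for rho. Cnbd2 had an r between -0.29 and 0.13 with the 7 measures, and its edgeR adjusted p was at least 0.948.

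**Figure D4:**
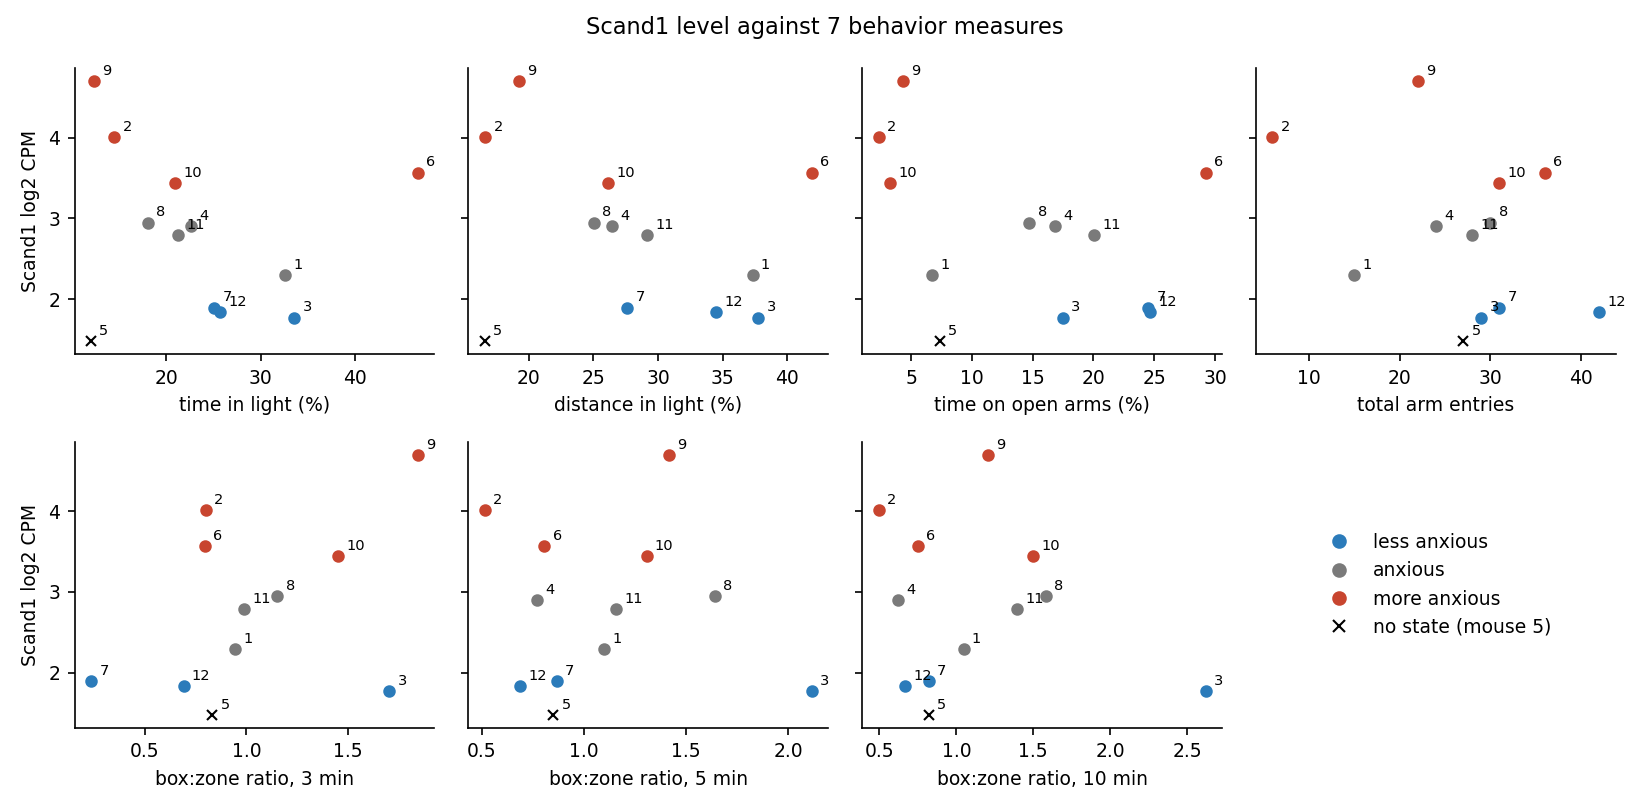
Scand1 level (log2 CPM) of each mouse against the 7 behavior measures, colored by predicted anxiety state and numbered by mouse, with mouse 5 as a cross. Mouse 6 lies far to the right of the other more anxious mice in the light and open arm measures. Mouse 5 lies lowest in each panel, and at the left in the light measures.

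The genes whose level across the 11 mice was most like that of Scand1 were H2afj, a histone H2A variant (r = 0.976), Tpgs1, a subunit of the tubulin polyglutamylase complex (0.974), Prr7, a synaptic membrane protein (0.973), Jund, a subunit of the AP-1 transcription factor (0.971), and Pcsk1n, the proSAAS inhibitor of a prohormone convertase (0.970). H2afj was 12.0 to 15.1 CPM in the less anxious mice, 17.7 to 22.9 in the anxious mice and 25.3 to 58.6 in the more anxious mice. Pcsk1n was 125 to 173 CPM, 170 to 271 and 312 to 510. Like Scand1, both were highest in mouse 9 among the mice with a state. H2afj did not overlap between states and was higher at each step, as 0.0779% of all genes tested were. Both genes were picked for their likeness to Scand1 in these same mice, so this order was largely given beforehand and tests nothing. The log2 fold changes with the GC offset were 1.40 for H2afj and 1.24 for Pcsk1n, close to their values of 1.45 and 1.33 without it, while those of Tpgs1, Prr7 and Jund went from 1.07, 1.37 and 1.18 to 0.66, 0.74 and 0.67.

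In all, 60 of 15891 genes had an r above 0.9 with Scand1. Their median GC content was 58.3% and their median exon length 1920 bases, against 49.3% and 4269.5 bases for all genes compared. A further 6 genes had an r below -0.9, led by Entpd2, an ectonucleotidase of glial cells (r = -0.934), Smad9, a BMP signal mediator (-0.933), Lpp, a focal adhesion protein (-0.926), Pag1, an adaptor of Src family kinase signaling (-0.910), and Rlf, a zinc finger protein (-0.906). The median over these 6 genes was 7577 exon bases and 45.2% GC, but Entpd2 itself had 2128 exon bases and 57.9% GC. The summed astrocyte markers were also lower toward the more anxious state, at 870 to 1075 CPM in the less anxious mice, 707 to 865 in the anxious mice and 651 to 825 in the more anxious mice. Most of that sum was Slc1a3 (mean 551 CPM), with a log2 fold change of -0.50, against -0.28 for Aqp4, -0.13 for Gfap and -0.17 for Aldh1l1. The direction was not particular to astrocytes, since 0 of the 4 markers each of oligodendrocytes, microglia and endothelial cells had a positive change. None of the 4 astrocyte markers passed edgeR's test across states, and their part in these values was not tested.

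Cnbd2 had no gene above an r of 0.9. The most alike were Teddm2 (0.899), the noncoding RNA gene Jpx, an activator of Xist (0.887), Parl, a mitochondrial rhomboid protease (0.855), Rtl8c, a retrotransposon-derived gene (0.847), and Pop4, a subunit of RNase P (0.845). Their log2 fold changes between more and less anxious mice ran from 0.00 to 0.09. Of the 6 spermatid and testis markers checked, 2 had enough reads to test, and all 6 together summed to between 0.151 and 0.570 CPM in the 11 mice with a state. The mice were female and have no such cells, so low values were given beforehand. They do not bear on which cells the Cnbd2 reads came from.

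No gene of the SCAN domain family, the possible partners of Scand1, passed edgeR's test across the states. Across the states edgeR called 2 of all 26963 genes (0.00742%) and 1712 (6.35%) at an unadjusted p under 0.05, and DESeq2 called 1.01% of the 18453 genes it tested. Of the 39 listed genes edgeR tested 36, while DESeq2 gave no adjusted p for Zscan10, and both called 0. At an unadjusted p under 0.05, 2 were higher and 2 lower, and the median log2 fold change was -0.06, against 0.00 over all genes. The partner Zfp202 was 6.73 to 7.93 CPM in the less anxious mice, 6.21 to 8.31 in the anxious mice and 6.24 to 7.74 in the more anxious mice, with a log2 fold change of -0.07 (SE 0.15). The ranges of Zfp202 thus overlapped in all states, unlike those of Scand1.

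Among the 35 SCAN genes with a mean of at least 1 CPM, the ends were Zfp444, with a log2 fold change of 0.49 (SE 0.15), Mzf1, a myeloid zinc finger factor, at 0.42 (SE 0.13), Zfp24, which is known from oligodendrocyte maturation, at -0.35 (SE 0.11), and Zkscan16 at -0.28 (SE 0.16). Their edgeR adjusted p-values were 0.659, 0.667, 0.674 and 0.918.

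Among the 20 PPAR receptors and coregulators, all tested, edgeR called 0 and DESeq2 called 3, all of them higher in the more anxious mice. DESeq2 called 1.01% of all genes it tested. At an unadjusted edgeR p under 0.05, 3 of the list were higher and 1 was lower (20%, against 6.35% over all genes). Pparg, the receptor that Scand1 was described to coactivate, was 0.612 CPM in mouse 3, 0.704 in mouse 12 and 3.39 in mouse 7. It was 0.546 to 1.06 CPM in the anxious mice, and in the more anxious mice 1.72 in mouse 9, 4.11 in mouse 6, 6.51 in mouse 10 and 8.86 in mouse 2. The less and more anxious mice overlapped, and mouse 9, which had the highest Scand1 level, had the lowest Pparg level of its group. The log2 fold change was 1.81 (SE 0.58), with an edgeR adjusted p of 0.428 and a DESeq2 adjusted p of 7.02e-05, and r with Scand1 was 0.566.

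The other genes that DESeq2 called were Nfkbib, an inhibitor of NF-kappa-B (log2 fold change 0.62, SE 0.12, DESeq2 adjusted p = 0.000749, edgeR adjusted p = 0.271), and Cited2, a binding partner of the coactivators p300 and CBP (0.61, SE 0.12, DESeq2 adjusted p = 0.00777, edgeR adjusted p = 0.329). Nfkbib was 11.1 to 12.9 CPM in the less anxious mice and 18.1 to 20.1 in the more anxious mice, and Cited2 was 21.2 to 23.7 and 27.5 to 38.5. Both separated these states without overlap, as 4.49% of all genes did in that direction. The receptor partners Rxrg and Rxra had the lowest log2 fold changes, at -0.47 (SE 0.17) and -0.31 (SE 0.14). The median of the list was -0.05.

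No PPAR target gene passed the test by either tool. edgeR tested all 15, while DESeq2 gave no adjusted p for Adipoq, Fabp4 and Plin1. Both called 0, where edgeR called 0.00742% of all genes and DESeq2 called 1.01%. At an unadjusted edgeR p under 0.05, Cd36 and Adipoq were lower and 0 were higher (13.3%, against 6.35% over all genes). A positive log2 fold change was found for 2 and a negative one for 13, with a median of -0.23, against 0.00 over all genes. For scale, 7756 of the 15891 genes compared with Scand1 had a positive change. Of the 13, Adipoq, Fabp4 and Plin1 rested on only 17, 68 and 83 counts over the 11 mice. The lowest among those with a mean of at least 1 CPM were Cd36, a fatty acid receptor, at -0.87 (SE 0.25, edgeR adjusted p = 0.648), and Plin4, a lipid droplet protein, at -0.40 (SE 0.36). The highest were Fabp3, a fatty acid binding protein, at 0.13 (SE 0.11), and Ucp2, a mitochondrial carrier, at 0.02 (SE 0.15). The summed endothelial markers were 102 to 148 CPM in the less anxious mice, 75.4 to 130 in the anxious mice and 76.0 to 95.9 in the more anxious mice. Singly, the log2 fold changes were -1.44 for Pecam1, -0.62 for Flt1, -0.20 for Ly6c1 and -0.09 for Cldn5. The part of endothelial cells in the values of the PPAR targets was not tested.

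For Cnbd2, the list was 27 genes with a cyclic nucleotide binding domain, of which edgeR tested 24, while DESeq2 gave no adjusted p for Cnga1. Both called 0 across the states, and the median log2 fold change was -0.03. At an unadjusted edgeR p under 0.05, 1 gene was higher and 0 were lower (4.17%, against 6.35% over all genes). That gene was the pacemaker channel Hcn2, at 0.29 (SE 0.11, edgeR adjusted p = 0.553), which has a GC content of 65.4% and a log2 fold change of -0.11 with the GC offset. Among the 19 genes with a mean of at least 1 CPM, Popdc3 was highest at 0.50 (SE 0.84), and the channel subunit Cngb1 and the exchange factor Rapgef6 were lowest at -0.38 (SE 0.34) and -0.34 (SE 0.13). Over the 7 behavior measures edgeR called 0 members of any of the 5 lists, and DESeq2 called 1, in the cyclic nucleotide list at 3 min of the social test, where it called 1.05% of the 15659 genes it tested. At an unadjusted edgeR p under 0.05 stood 5 of 252 tests in the SCAN list, 24 of 140 in the PPAR receptor list, 8 of 105 among PPAR targets, 18 of 168 in the cyclic nucleotide list and 6 of 112 among the chromosome neighbours, against 6.35% over all genes and measures.

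No gene around the locus passed edgeR's test across the states. Of 22 annotated genes within 250 kb, edgeR tested 16 and called 0, and DESeq2 called 1. DESeq2 gave no adjusted p for Gm14251, Gm14252 and Rpl21-ps9. The median log2 fold change was 0.01. DESeq2 called 1.01% of all genes it tested. At an unadjusted edgeR p under 0.05, 1 neighbour was higher and 2 were lower (18.8%, against 6.35% over all genes). Among the 11 with a mean of at least 1 CPM, the ends were Gm28036 at 0.49 (SE 0.38), Romo1, a mitochondrial membrane protein, at 0.38 (SE 0.14), Rbm12, an RNA binding protein, at -0.46 (SE 0.15), and the pseudogene Gm14253 at -1.95 (SE 0.51). Gm14253, at chr2:156347202-156347840 on the minus strand within the span of Cnbd2, was the gene that DESeq2 called (adjusted p = 0.0347, edgeR adjusted p = 0.591). It was 2.17 to 4.32 CPM in the less anxious mice, 1.15 to 4.53 in the anxious mice, and 0.272 in mouse 9, 0.362 in mouse 10, 1.91 in mouse 2 and 3.09 in mouse 6. The more anxious mice thus split between near 0 and the range of the other states, and counts of a pseudogene can be shared with its parent gene.

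**Figure D5:**
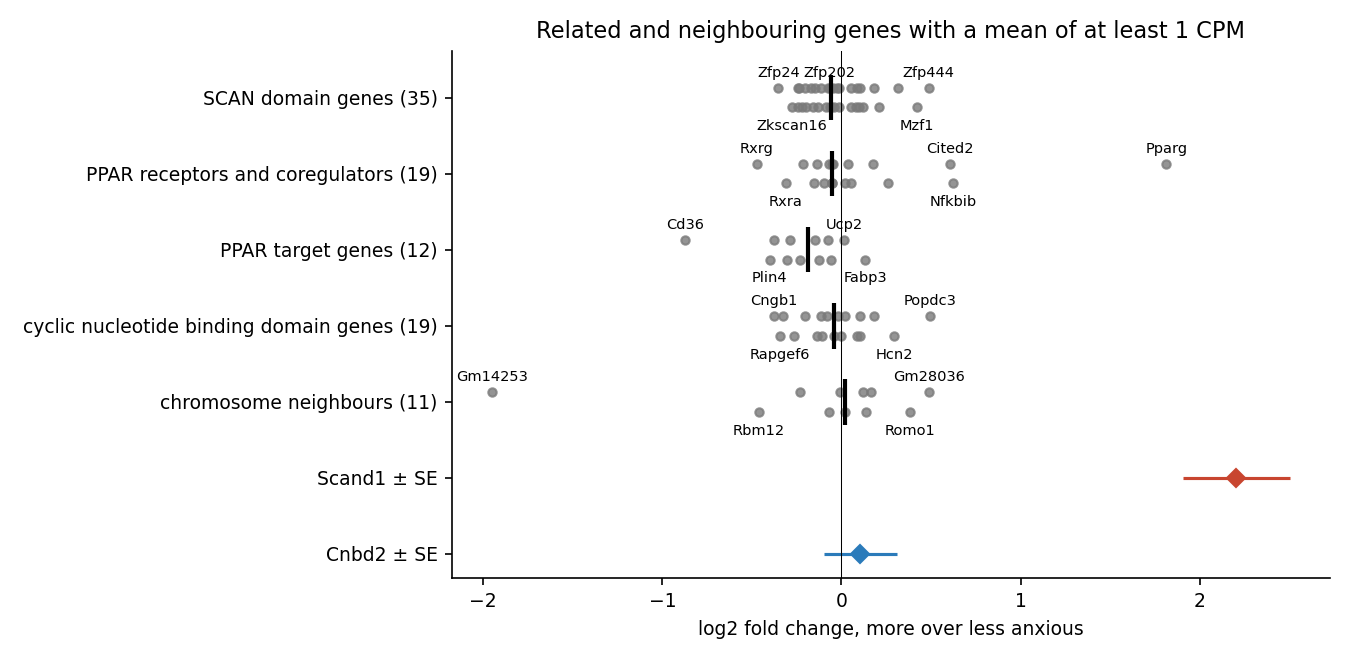
Log2 fold change of more over less anxious mice for the genes of each list with a mean of at least 1 CPM (points, the number of genes in brackets, bar at the median; points are set on 2 levels for legibility only), with Scand1 and Cnbd2 and their SE. Scand1 at 2.20 lies to the right of every listed gene shown, and Pparg at 1.81 comes next.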

How the data were processed

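Bilateral amygdala RNA of 12 mice was prepared with a stranded mRNA kit and sequenced with single-end reads in a single run. The authors deposited estimated counts per gene (expected counts, from Salmon and tximport) as whole numbers, without normalization, for 47729 genes. The labels name Salmon, DESeq2 and the mm10 build. The annotation release, tool versions and strand setting of the counting are not given in the sources used here. Salmon divides reads among transcripts that fit them, so counts of overlapping genes and pseudogenes are uncertain.

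GENCODE M21 (GRCm38) gave names and positions for 47310 of the identifiers (99.1%) and GC content for 47224. Counts were scaled with TMM factors, and CPM values of the 12 mice used the factors of all 12. edgeR's quasi-likelihood F-test (robust) across states had a PC1 score as a covariate, over 26963 genes with at least 10 reads in the 11 mice. The study also used PC1, but the score here was computed anew from the deposited counts. On the second component of that computation, mouse 6 (0.324) lay among the anxious mice (-4.92 to 7.99). The components are therefore not exactly those behind the labels. Behavior measures were standardized and fitted without a covariate. Benjamini-Hochberg adjusted p under 0.05 was called. DESeq2's likelihood ratio test was the alternative. Log2 CPM used a prior count of 2, and correlations 100000 permutations. The other alternatives were the size factors, the count filter, the covariate, GC and length offsets, mouse 5 included, and each mouse left out. Fits were tested on simulated data. Fits ran in R 4.3.3 with DESeq2 1.42.0 and edgeR 4.0.16. Permutations used scipy 1.17.1 and numpy 2.4.6 in Python 3.11.15, tables pandas 2.3.3 and plots matplotlib 3.10.9.

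The members and lists were chosen with earlier results of these data known. The text names the 5 genes most and least like Scand1 and the 5 most like Cnbd2 among those with a mean of at least 1 CPM, and of each list the called genes and the 2 highest and 2 lowest by log2 fold change, with Zfp202, Pparg and Cited2. Hcn2 was also described as a single low p-value of its list. Depth of 31745630 to 45142355 counts per library gives the Poisson intervals shown, which cover counting error only. Group p-values rest on separate animals.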

Additional observations from a re-analysis of the deposited data

How the results depend on the processing

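The Scand1 log2 fold change from less to more anxious mice (2.20) lay between 1.78, without mouse 9, and 2.37 when each mouse was left out, and moved to 1.60 with the GC offset and 1.41 with GC and length offsets. With the latter the steps were 0.57 (less anxious to anxious) and 0.83 (anxious to more anxious). Leaving out each mouse gave 0.86 to 1.11 and 0.92 to 1.42. No alternative reversed these 3 Scand1 values. The count of genes called across states (2) was 186 with DESeq2, 9 without the count filter, 1 with GC and length offsets, 0 without the PC1 covariate, and 0 (without mouse 9) to 5 when each mouse was left out. DESeq2 called 3 PPAR receptors and coregulators and 1 chromosome neighbour, where edgeR called 0. No behavior slope passed the threshold under any alternative. Slopes near 0 (log2 per SD) changed sign. Cnbd2 slopes became 0.0114 for time in the light and 0.00752 for distance in the light with all 12 mice, and at 10 min 0.0396 with the PC1 covariate and 0.00662 with all 12 mice. When each mouse was left out, slopes at 3 min ran from 0.0344 to 0.656 for Scand1 and -0.00365 to 0.0760 for Cnbd2, at 5 min from -0.337 to 0.181 for Scand1 and -0.0259 to 0.0889 for Cnbd2, and at 10 min from -0.405 to 0.0667 for Scand1 and -0.0607 to 0.0293 for Cnbd2. The cause of these changes was not tested. No paired analysis was possible because each mouse was a separate animal and its replicate number only a name. Depth limits the less anxious Scand1 values most, at 121 to 146 counts a library, and mouse 5 rests on 90.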
